A study of Danio rerio with 7 samples.

Results

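In libraries of gata1-positive erythroid cells from ddx41 mutant zebrafish, 16 genes of 32105 were on that were nearly silent in libraries from siblings. The part of other cells in these levels was not tested. Polyadenylated RNA of gata1-positive erythroid cells, isolated at 40 hours post fertilization, had been sequenced in 3 ddx41 mutant libraries (replicates 2, 3 and 4) and 4 sibling libraries (replicates 1, 3, 4 and 5). The ddx41 gene encodes a DEAD-box RNA helicase, and gata1 encodes the transcription factor that marks the red cell lineage. The labels name neither the mutant allele, nor the siblings' genotype, nor the number of embryos behind a library. The name of the deposited table includes gata1dsred, and the labels say no more of how the cells were marked. A gene belonged to the set when its level was below 1.5 CPM (its count scaled by the total of the library) in all 4 siblings and at least 5 CPM in all 3 mutants. The 16 genes were thus chosen by their levels in both groups, and the contrast between the groups is given for these genes as a description with no test.

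Differentiating red cells make globins, haem enzymes and membrane proteins in large amounts, while many genes of other tissues stay low. Genes listed as markers of other cell types nonetheless had counts in these libraries, and the cells these counts came from were not tested. Of 349 marker genes of other cell types, 266 had enough counts to be tested. Neutrophil markers alone summed to 2028 to 3327 CPM in siblings. The labels' cell type was checked on its defining genes. The anion exchanger gene SLC4A1 (ENSDARG00000012881, the more abundant ID of that symbol) lay between 6678 and 9697 CPM in mutants and between 9975 and 11173 CPM in siblings, and gata1a lay between 296 and 612 CPM in mutants and between 446 and 719 CPM in siblings. Neither this SLC4A1 ID nor gata1a passed edgeR's test (adjusted p 0.203 and 0.242). The erythroid gene alas2 had 1908 to 3692 CPM in mutants and 2578 to 3129 CPM in siblings (edgeR adjusted p = 0.908). For klf1 the values were 320 to 529 CPM in mutants and 434 to 547 CPM in siblings (edgeR adjusted p = 0.328). The embryonic globin gene hbae1.3 was lower, at 7138, 6447 and 3379 CPM in mutants and 14548 to 26586 CPM in siblings (edgeR adjusted p = 0.000998). The second SLC4A1 ID, ENSDARG00000024560, was higher, at 243, 108 and 260 CPM in mutants and 47.6 to 55.6 CPM in siblings (edgeR adjusted p = 0.000104). The summed level of 30 erythroid marker IDs ran from 59726 to 110927 CPM in mutants and from 112045 to 151853 CPM in siblings. Library totals lay between 11814324 and 14363255 counts, so that 1 count was worth 0.0696 to 0.0846 CPM. In bulk RNA, fewer cells of a type and less RNA per cell cannot be told apart. Nothing in the labels says whether libraries came from separate clutches, so a p-value here speaks only of how far these libraries vary, which may be technical.

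Few genes below the sibling bound met the mutant bound. Of 14811 genes below 1.5 CPM in every sibling, called silent here, 14704 reached 5 CPM in no mutant library. Of the rest, 75 reached it in 1, 16 in 2 and 16 in all 3, the last being 0.108% of the 14811. The 14811 include genes without a count in any library, such as PDCL3, so this share is not a rate of genes switched on. The 75 genes that reached the bound in a lone mutant library were divided into 23 in replicate 2, 15 in replicate 3 and 37 in replicate 4. The mirror-image rule, at least 5 CPM in all siblings and below 1.5 CPM in all mutants, gave 5 of 14381 genes, or 0.0348%. With 3 mutants and 4 siblings the 2 rules did not ask for the same number of libraries, so these shares are side by side and not a test. Of the 16 genes, 9 carried a gene symbol, 5 a clone-based symbol (such as si:dkey-117j14.6) and 2 no symbol. Clone-based symbols made up 31.2% of the set, 12.5% of all genes called higher in mutants and 26.9% of the silent genes.

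**Figure D1:**
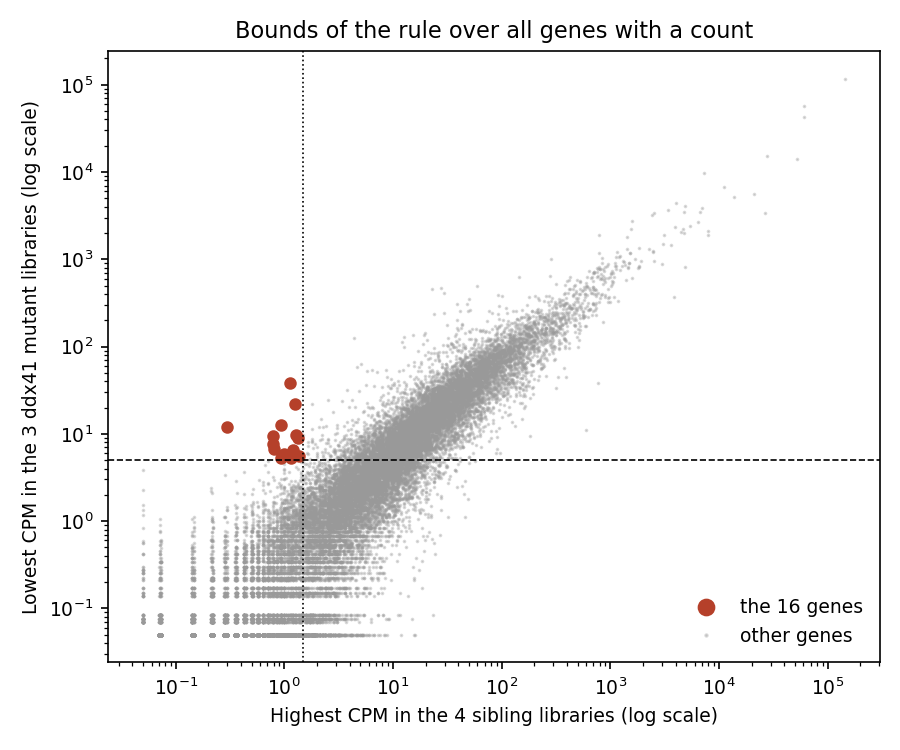
Highest CPM among the 4 sibling libraries (horizontal, log scale) against the lowest CPM among the 3 ddx41 mutant libraries (vertical, log scale) for every gene with a count, with 0 drawn at 0.05. Red points are the 16 genes, which lie left of the dotted bound at 1.5 CPM and above the dashed bound at 5 CPM, away from the main band of grey genes.

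Among the named enzymes and carriers, the prenyl-binding chaperone gene PDE6D stood highest. PDE6D protein carries lipid-modified proteins between membranes and was first found with the phosphodiesterase of photoreceptors. It had 40.5, 37.8 and 42.7 CPM in mutant replicates 2, 3 and 4, against 0.929, 0.0738, 1.13 and 0.358 CPM in sibling replicates 1, 3, 4 and 5. The mutants were almost level with each other, while the siblings held 13, 1, 16 and 5 counts. Means were 40.3 ± 2.43 CPM in mutants (SD, n = 3) and 0.621 ± 0.489 CPM in siblings (SD, n = 4), a fitted 60.1-fold difference. Pooled over the siblings the gene had 35 counts, or 0.628 CPM with an exact Poisson 95% interval of 0.437 to 0.873, which covers counting error only.

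The gene tymp encodes thymidine phosphorylase, which splits thymidine into thymine and a sugar phosphate. Its level was 32.7, 29.6 and 22.2 CPM in mutant replicates 2, 3 and 4, against 1.0, 0.665, 1.27 and 1.0 CPM in sibling replicates 1, 3, 4 and 5. Mutant replicate 4 was the lowest of the mutants and still far above every sibling, with means of 28.2 ± 5.38 CPM in mutants (SD, n = 3) and 0.983 ± 0.247 CPM in siblings (SD, n = 4). Of 5 related pyrimidine genes, TYMS, the thymidylate synthase gene, rose to 283, 356 and 189 CPM in mutants, against 199, 161, 139 and 96.4 CPM in siblings (edgeR adjusted p = 0.0423), with groups that overlap. The thymidine kinase genes TK1 and TK2 and the uridine phosphorylase gene UPP1 did not pass edgeR's test (adjusted p 0.0869, 0.811 and 0.732), and UPP2 was too low to be tested.

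PDC encodes phosducin, a photoreceptor protein that binds G protein beta and gamma subunits. The ID ENSDARG00000011886, 1 of 2 with that symbol, had 15.2, 12.8 and 12.7 CPM in mutants, against 0.929, 0.517, 0.844 and 0.644 CPM in siblings. All mutant libraries were alike, and the second PDC ID, ENSDARG00000017634, had no count in any mutant and 1 library with a count among the siblings, at 0.0715 CPM. The related genes PDCL and PDCL3 did not follow: PDCL had 32.8, 32.7 and 30.1 CPM in mutants and 27.4 to 44.3 CPM in siblings (edgeR adjusted p = 0.437), and PDCL3 had no counts.

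As both PDE6D and PDC are known from photoreceptors, markers of the eye were set beside them. The 47 IDs of the lens and retina list summed to between 272 and 414 CPM in mutants and between 373 and 502 CPM in siblings. Of 25 of them that were tested, 1 was higher and 2 were lower in mutants. Over all tested genes 8.87% were called higher and 7.69% lower, so these few calls do not set the list apart. The one higher was rlbp1b, which encodes a retinaldehyde-binding protein, with 4.66, 2.11 and 2.37 CPM in mutants and 0 to 0.369 CPM in siblings (edgeR adjusted p = 0.005). The photoreceptor regulator crx (ENSDARG00000011989) lay between 0 and 1.1 CPM in mutants and between 0.5 and 3.29 CPM in siblings, and did not pass (edgeR adjusted p = 0.236). GNAT1, of the same list, was level, at 8.21, 12.8 and 7.1 CPM in mutants and 8.51 to 10.9 CPM in siblings (edgeR adjusted p = 0.77). Of the other phosphodiesterase 6 genes, PDE6C had 3.13, 2.86 and 5.50 CPM in mutants and 3.18 to 7.14 CPM in siblings, and PDE6G was lower in mutants at 0.0752 to 0.627 CPM, against 1.5 to 2.07 CPM in siblings (edgeR adjusted p = 0.0437). Of 15 genes grouped with PDE6D (phosphodiesterase 6 subunits, UNC119 and ARL proteins, and RABAC1), 12 were tested, none was called higher and 2 were called lower. The second was ARL2, a small GTPase gene, which had 32.8, 25.6 and 22.6 CPM in mutants and 43.7 to 56.3 CPM in siblings (edgeR adjusted p = 0.00705).

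MPPED1, which encodes a metallophosphoesterase domain protein known from the mammalian brain, had 13.5, 14.3 and 9.54 CPM in mutants and 0.214, 0.591, 0.0704 and 0.787 CPM in siblings. Its sibling values rested on 3, 8, 1 and 11 counts, and its mutant values on 159, 190 and 137. The relative mpped2a went the other way, with 6.94, 3.53 and 5.50 CPM in mutants and 20.5, 8.64, 10.1 and 9.01 CPM in siblings (edgeR adjusted p = 0.0307), and sibling replicate 1 stood apart there. Neural markers as a list had 1 of 31 called higher and 4 called lower, where 8.87% of all tested genes were higher and 7.69% lower. Their summed levels were 718 to 1302 CPM in mutants and 906 to 1285 CPM in siblings.

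The scramblase gene plscr3a, whose family moves phospholipids between membrane leaflets, was the most even of the set. It had 7.70, 7.82 and 7.87 CPM in mutants and 0.786, 0.665, 0.141 and 0.0715 CPM in siblings. The mutant values rested on 91, 104 and 113 counts. Pooled over the mutants, the exact Poisson 95% interval was 6.95 to 8.72 CPM, wider than that spread, so its evenness is not read as a trait of the gene. Its paralog plscr3b was at 90.7, 104 and 75.4 CPM in mutants and at 99.3 to 105 CPM in siblings and did not pass edgeR's test (adjusted p = 0.441). The ammonium transporter gene RHCG (ENSDARG00000007080, 1 of 3 IDs with that symbol), of a family known from fish gill and skin ionocytes, had 8.55, 6.77 and 7.52 CPM in mutants and 0.214, 0.812, 0.774 and 0.143 CPM in siblings. RHAG, a red cell member of that family, was abundant in both groups, at 753 to 1170 CPM in mutants and 818 to 1233 CPM in siblings, and it did not pass the test (edgeR adjusted p = 0.547). RHCE, also abundant, lay lower in mutants, at 616, 626 and 364 CPM against 698 to 957 CPM in siblings (edgeR adjusted p = 0.0625). None of the 4 tested relatives of RHCG passed, and neither of its other IDs rose above 1.71 CPM in any library. Epidermal markers had 8 of 31 tested genes higher and 2 lower, where 8.87% of all tested genes were higher and 7.69% lower. Whether skin cells contributed to the RHCG level was not tested.

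The omega-class glutathione transferase gene gsto1 had 5.76, 5.34 and 10.1 CPM in mutants and 0.929, 0.886, 0.704 and 0.429 CPM in siblings. Mutant replicate 4 was 1.89 times the lowest mutant, the widest ratio in the set. Its neighbour and paralog gsto2 was at 54.0, 40.3 and 68.4 CPM in mutants and at 42.6 to 54.9 CPM in siblings, with an edgeR adjusted p of 0.995. The zinc finger gene znf1154 had 9.48, 5.26 and 5.99 CPM in mutants and 0.714, 1.11, 0.281 and 1.14 CPM in siblings, highest in mutant replicate 2. Zinc finger genes form large families, and near-identical copies may divide their reads in the counting.

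HSPA8 names the constitutive cytosolic HSP70 chaperone, which folds new and damaged proteins. The ID in the set, ENSDARG00000037403, is 1 of 2 with that symbol and had 6.18, 8.95 and 6.89 CPM in mutants and 1.21, 0.960, 0.211 and 1.07 CPM in siblings. The other, ENSDARG00000068992, was abundant and level, at 4108, 5002 and 4080 CPM in mutants and 3670 to 4878 CPM in siblings (edgeR adjusted p = 0.937). A related gene, hspa1b, just missed the set. It had 4.82, 13.9 and 5.85 CPM in mutants and 0.286, 0.517, 0.493 and 0.715 CPM in siblings, and replicate 2 fell short of the bound of 5 CPM. In both genes mutant replicate 3 was the highest library. Of 17 relatives with HSP70-type symbols, 15 were tested, 5 were called higher and 2 lower, where 8.87% of all tested genes were higher and 7.69% lower. Among those higher, HSPA9, of the mitochondrial matrix, had 259, 236 and 253 CPM in mutants and 80.9 to 93.3 CPM in siblings (edgeR adjusted p = 6.2e-05). Those lower were more abundant: hsp70.3 had 2045, 3031 and 2352 CPM in mutants and 3478 to 4505 CPM in siblings (edgeR adjusted p = 0.0407). The other was HSPA4 (ENSDARG00000004754), with 418, 572 and 372 CPM in mutants and 831 to 1074 CPM in siblings (edgeR adjusted p = 0.00324). A second HSPA4 ID, ENSDARG00000018989, was among those higher, with 213, 179 and 164 CPM in mutants and 93.8 to 106 CPM in siblings (edgeR adjusted p = 0.0089). Of the wider heat shock list, which includes HSPA8 and hspa1b, 8 of 22 tested genes were higher and 2 lower. Both hspa1b and the member HSPA8 (ENSDARG00000037403) are among the 8, and the rule chose the member by this same contrast. The list's summed level was 12967 to 17612 CPM in mutants and 14769 to 19878 CPM in siblings.

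The remaining 7 genes have clone-based names or none, and no role is given to them here. The largest contrast was at si:ch73-65n21.1, with 13.3, 12 and 15.2 CPM in mutants and 0, 0.295, 0 and 0.0715 CPM in siblings. All 4 siblings together held 5 counts of it against 535 in the mutants, so its fitted 129-fold difference rests on a floor of very few reads. The gene si:ch211-207n2.7 had 9.82, 14.4 and 14.3 CPM in mutants and 1.29, 0.665, 0.633 and 1.0 CPM in siblings. The clone-named ENSDARG00000075022 had 11.9, 7.29 and 6.47 CPM in mutants and 0.571, 0.148, 1.13 and 1.22 CPM in siblings. Among the mutants, replicate 2 was the lowest at the first of these genes and the highest at the second. The gene si:dkey-117j14.6 had 9.82, 7.07 and 5.85 CPM in mutants and 0.214, 0, 0.141 and 1.0 CPM in siblings. The gene si:ch211-114c12.5 had 6.26, 7.67 and 5.57 CPM in mutants and 0.286, 0.960, 0.352 and 1.36 CPM in siblings, with 19 counts in sibling replicate 5, the most of any member in a sibling. The 2 IDs without a symbol, ENSDARG00000084532 and ENSDARG00000090399, had mutant means of 10.9 ± 1.75 and 7.05 ± 1.07 CPM (SD, n = 3 each) and sibling means of 1.03 ± 0.270 and 0.955 ± 0.358 CPM (SD, n = 4 each).

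**Figure D2:**
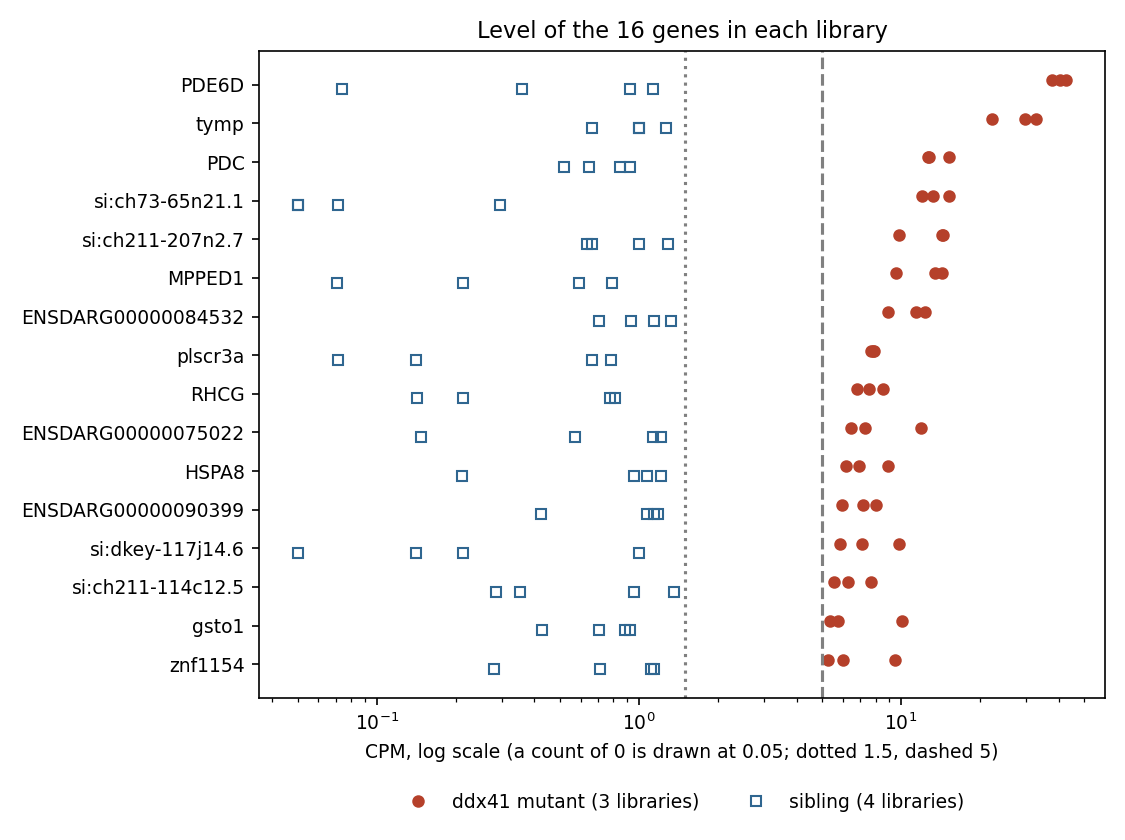
Level of each of the 16 genes in CPM on a log scale, with filled circles for the 3 ddx41 mutant libraries and open squares for the 4 sibling libraries, a count of 0 drawn at 0.05, and the bounds at 1.5 (dotted) and 5 CPM (dashed). The mutant values lie between 5.26 and 42.7 CPM and the sibling values between 0 and 1.36 CPM, with the 3 mutant libraries close together at most genes.

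The rule asked for 5 CPM in every mutant library, which limits how far these can differ. Without that condition, 48, 40 and 67 of the silent genes reached 5 CPM in mutant replicates 2, 3 and 4. The summed level of the 16 genes was 206, 197 and 192 CPM in mutant replicates 2, 3 and 4, against 11.5, 10.9, 8.80 and 12.4 CPM in sibling replicates 1, 3, 4 and 5. Without PDE6D, the most abundant member, the sums were 165, 160 and 149 CPM in mutants and 10.6, 10.8, 7.67 and 12 CPM in siblings. Replicate 2 was the highest mutant library at 6 genes, replicate 3 at 6 and replicate 4 at 4. The ratio of the highest to the lowest mutant library had a median of 1.42 over the 16 genes and ran from 1.02 at plscr3a to 1.89 at gsto1. No member was at 0 in all siblings, and 2 members were at 0 in at least 1 sibling. Member counts ran from 68 to 613 in a mutant library and from 0 to 19 in a sibling library.

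All 16 genes passed the filter on low counts, which they could do through the mutant libraries alone, and all 16 were called higher by edgeR's quasi-likelihood test with Benjamini-Hochberg adjustment. Over all 18565 tested genes 8.87% were called higher. The rule used the same contrast, so the count of 16 is printed beside that share and nothing is read from it. Fitted folds ran from 7.01 at ENSDARG00000090399 to 129 at si:ch73-65n21.1, with a median log2 fold change of 3.80, where all tested genes had a median of 0.04. The set did not hold all the large rises. Of 135 genes called higher by at least 8-fold, 15 were members, and the others were at 1.5 CPM or more in a sibling or stayed below 5 CPM in a mutant.

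The bounds fell within a continuous range. The members nearest to the mutant bound were znf1154, gsto1 and si:ch211-114c12.5, with lowest mutant libraries of 5.26, 5.34 and 5.57 CPM. Just outside it were si:dkey-85n7.7, hspa1b and si:ch211-145b13.6, with 4.94, 4.82 and 4.74 CPM. At the sibling bound, si:ch211-114c12.5, ENSDARG00000084532 and si:ch211-207n2.7 lay just inside, with highest siblings of 1.36, 1.33 and 1.29 CPM. Just outside were ENSDARG00000056910, sync and EGLN1, with highest siblings of 1.5, 1.62 and 1.65 CPM. EGLN1, which encodes an oxygen-sensing prolyl hydroxylase, had 9.99, 7.29 and 7.24 CPM in mutants.

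Several of the 16 genes lay beside a gene that was itself higher in mutants. The rows of the table followed the order of genes along chromosomes. Of 9917 adjacent row pairs whose symbols were both found among RefSeq genes of assembly GRCz12tu, 99.4% were on 1 chromosome and 87.8% were next to each other there. The 16 genes had 32 adjacent rows, of which 27 were tested. Among those, 9 were called higher and 1 lower by edgeR, so 33.3% of the tested neighbours were higher, where the share over all tested genes was 8.87%. Next to the other genes called higher, 513 of 2483 tested rows were higher, or 20.7%, and the difference between 33.3% and 20.7% was not tested. Farther away the share next to the 16 genes was 4.55% at 2 rows and 4.76% at 3 rows, with 22 and 21 tested rows. It then varied between 0% at 9 rows and 22.7% at 10 rows, each on about as few rows, while the share next to the other genes called higher was 11.3% at 2 rows and 8.65% to 10.1% beyond.

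**Figure D3:**
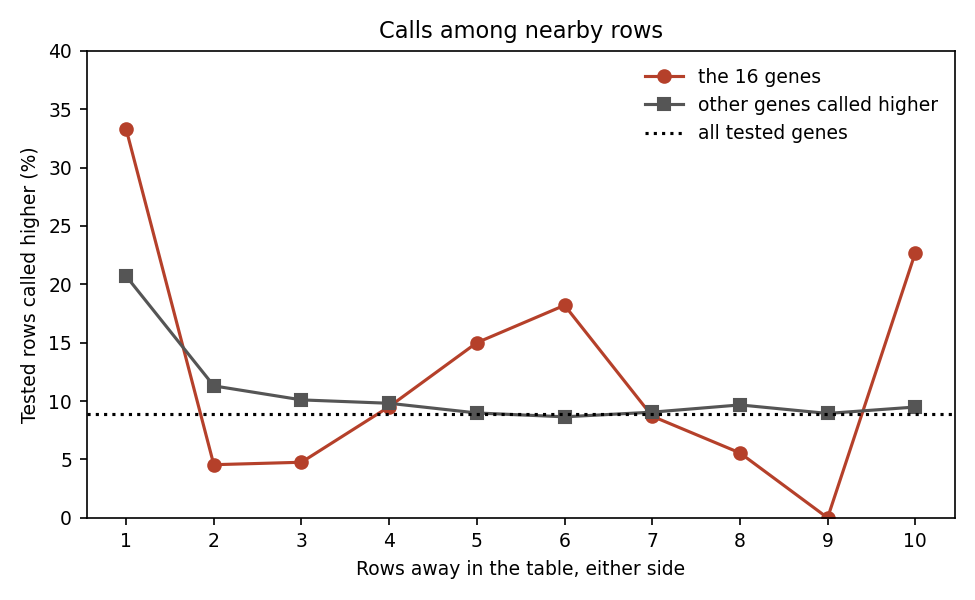
Share of tested rows called higher in ddx41 mutants (vertical, percent) by distance in rows from the 16 genes (circles) and from the other genes called higher (squares), with the share over all tested genes dotted. Each circle rests on 18 to 27 rows and the circles scatter from 0% to 33.3%, and the share at 1 row is 33.3% for the 16 genes and 20.7% for the other genes called higher.

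The neighbours that were higher had diverse roles. LSM8, which encodes a subunit of the ring that binds the U6 small nuclear RNA, precedes tymp and had 200, 155 and 136 CPM in mutants, against 19.1, 17.9, 14.0 and 16.1 CPM in siblings (edgeR adjusted p = 1.43e-07). Both LSM8 and tymp were highest in mutant replicate 2 and lowest in replicate 4. Such a shared order also held at si:ch211-207n2.7 with ECD and at znf1154 with si:dkey-1b17.2. It did not hold at the other pairs of a member and a higher neighbour, and with 3 mutant libraries nothing is read from it. ODR4, known in worms for bringing odorant receptors to the membrane, precedes PDC and had 31.8, 32.4 and 35.5 CPM in mutants, against 3.79, 3.18, 3.24 and 2.29 CPM in siblings (edgeR adjusted p = 8.8e-07). ECD, the vertebrate relative of the fly gene ecdysoneless, follows si:ch211-207n2.7 and had 52.1, 61.0 and 52.6 CPM in mutants, against 11.4, 5.98, 6.54 and 4.65 CPM in siblings (edgeR adjusted p = 5.77e-06). The groups did not overlap at any of these genes. Over all tested genes, 16.7% had every mutant above every sibling.

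On the other side of plscr3a from senp3a lay phf23a, a PHD finger gene, with 88.2, 69.9 and 85.1 CPM in mutants and 21.9, 19.6, 24.6 and 18.5 CPM in siblings (edgeR adjusted p = 1.72e-05). CHUK, the gene of IkappaB kinase alpha, precedes gsto1 and had 70.6, 67.2 and 62.8 CPM in mutants, against 19.4, 27.7, 28.1 and 28.3 CPM in siblings (edgeR adjusted p = 0.000764). The helicase gene recql4 follows ENSDARG00000090399 and had 47.7, 38.6 and 24.9 CPM in mutants, against 18.9, 18.3, 17.0 and 11.7 CPM in siblings (edgeR adjusted p = 0.011). It no longer passed without ddx41 mutant replicate 2 (edgeR adjusted p = 0.0794). Beside znf1154, si:dkey-1b17.2 had 12.8, 8.12 and 9.68 CPM in mutants and 3.36, 6.94, 2.81 and 2.57 CPM in siblings (edgeR adjusted p = 0.0375), and it passed in 2 of the 7 fits that left out a library, with an adjusted p of up to 0.163.

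The neighbour of si:ch73-65n21.1 was also silent in siblings. The row after it, si:ch73-65n21.2, had 3.81, 7.22 and 7.10 CPM in mutants and no count in any sibling, and it missed the set through replicate 2. Against a floor of 3 counts over the 4 siblings together, 0.0538 CPM, its mutant mean of 6.04 ± 1.94 CPM (SD, n = 3) was at least 112-fold higher. Of the members, MPPED1 and tymp were 19 rows apart, and si:ch211-114c12.5 and plscr3a were 11 rows apart. Whether this is nearer than for other genes was not tested.

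The other members had no neighbour called higher. The rule chose members and not their neighbours for a wide gap between the groups, so this is a description only. The rows beside PDE6D are PEX5L and PHB2. PEX5L had 12.7, 12.9 and 12.3 CPM in mutants and 13 to 14.9 CPM in siblings. PHB2 had 33.3, 21.7 and 27.2 CPM in mutants and 11.3 to 27.5 CPM in siblings. Neither of these neighbours passed edgeR's test (adjusted p 0.526 and 0.229). Next to MPPED1, SULT4A1 had 1.44, 1.13 and 4.94 CPM in mutants and 0.493 to 1.03 CPM in siblings. Every mutant was above every sibling there, but SULT4A1 did not pass (edgeR adjusted p = 0.144). On the other side SCUBE1 was lower, at 4.15, 2.86 and 7.66 CPM in mutants and 7.64 to 11.8 CPM in siblings (edgeR adjusted p = 0.0476). The gene spans of MPPED1 and SULT4A1 overlap in assembly GRCz12tu. Row neighbours of RHCG, ENSDARG00000075022, si:dkey-117j14.6 and ENSDARG00000084532 were not called in either direction or were too low to be tested, and HSPA8 (ENSDARG00000037403) had no tested neighbour.

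**Figure D4:**
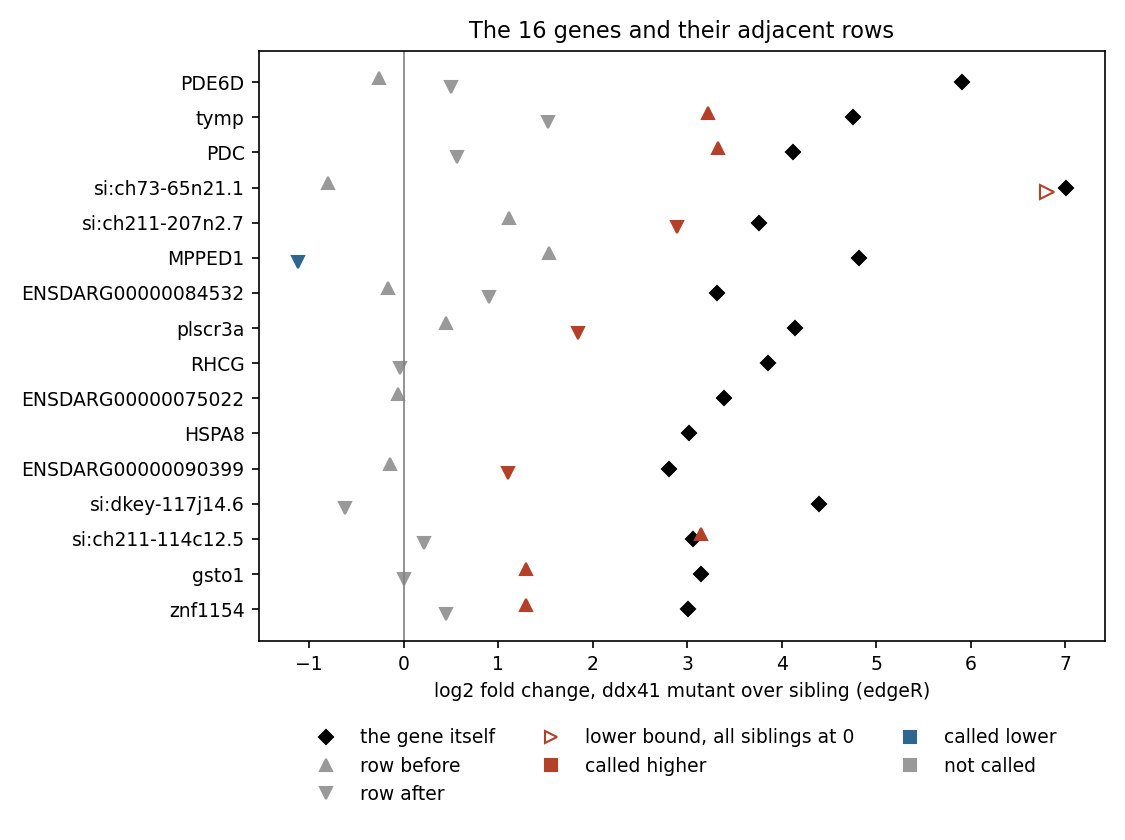
Fitted log2 fold change of ddx41 mutant over sibling for each of the 16 genes (black diamonds) and for the row before it (upward triangles) and after it (downward triangles), coloured by edgeR's call. The open triangle is a lower bound for si:ch73-65n21.2, which had no sibling count. The diamonds lie at 2.81 or above, and 9 genes have a neighbour called higher (red).

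Counts of a member were also set against counts of its higher neighbour in the same library, a ratio that needs no scaling of libraries. For every 100 LSM8 counts there were 16.3, 19.2 and 16.3 tymp counts in mutants and 5.22, 3.72, 9.05 and 6.22 in siblings. For every 100 ODR4 counts there were 47.9, 39.4 and 35.9 PDC counts in mutants and 24.5, 16.3, 26.1 and 28.1 in siblings. The ratio of plscr3a to phf23a was 8.73, 11.2 and 9.25 counts per 100 in mutants and 3.59, 3.38, 0.573 and 0.388 in siblings. At these pairs every mutant lay above every sibling. The rule chose members for a wide gap between the groups and did not choose their neighbours, so it favours such ratios, and they are a description only. Of 9 pairs, 6 had mutants above siblings, 2 overlapped and 1, at si:ch73-65n21.1, had no ratio in siblings. The 6 include gsto1 with CHUK, znf1154 with si:dkey-1b17.2 and ENSDARG00000090399 with recql4. At si:ch211-207n2.7, 1 of the overlapping pairs, there were 18.9, 23.6 and 27.3 counts per 100 ECD counts in mutants and between 9.68 and 21.5 in siblings, the highest in replicate 5. The labels do not say whether the counting used strand, so reads of adjacent or overlapping genes on opposite strands may have been shared, and the part of that in these values was not tested.

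None of the 16 genes was in the 12 marker lists used here for other cell types. The lists did not hold PDC, known from photoreceptors, or RHCG, of a family known from ionocytes. Nothing is therefore read from the absence of members. Of the 349 genes in these lists, 266 were tested, of which 27 (10.2%) were higher and 26 (9.77%) lower, against 8.87% and 7.69% of all tested genes. Epidermal markers had 8 of 31 higher and 2 lower, with summed levels of 1722 to 3599 CPM in mutants and 1280 to 2472 CPM in siblings. Skeletal and cardiac muscle markers had 1 of 28 higher and 7 lower, and macrophage and pan-leukocyte markers 1 of 26 higher and 7 lower. Neutrophil markers had 4 of 13 higher and none lower, with summed levels of 2152 to 4288 CPM in mutants and 2028 to 3327 CPM in siblings. The part of other cells in the levels of the 16 genes was not tested. Of 89 tested developmental transcription factor genes 4 were higher and 3 lower, and of 23 tested interferon response genes 1 was higher and 3 lower, with no member of the set in either list.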

How the data were processed

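The authors deposited raw counts per Ensembl gene in 1 table with 32105 rows and a column for each of 7 libraries, per the file header. Tools listed in the submitters' processing notes, without their roles, are STAR 2.4.2a, Trim Galore, DESeq2, Cufflinks 2.2.1 and Picard, with the build GRCz10. Neither the counting program nor its strand setting is stated. Columns were matched to samples by title, and 0 columns were of other samples. A table named 26269 IDs, many in human style, so paralogs are given with their ID.

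CPM are count over column total. Mutants were compared with siblings in R 4.3.3 with edgeR 4.0.16 (filterByExpr with minimum count 10 and total 15, TMM, glmQLFTest, no block, Benjamini-Hochberg adjustment at 0.05) over 18565 genes, and with DESeq2 1.42.0 as an alternative. Fold changes are mutant over sibling. Row order was checked against RefSeq GRCz12tu, from which only names, neighbours and overlaps were used. Poisson intervals cover counting error only.

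Members and gene lists were chosen with earlier results of these data known. The rule for named genes took members by their lowest mutant level, by unevenness among mutants, by list membership, at each bound and beside a gene above 10 CPM. Remaining members, relatives, further neighbours and single markers were named after their values were seen. The ddx41 transcript was not analysed here, and some genes and 1 gene list are not reported here.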

Additional observations from a re-analysis of the deposited data

Results flagged for a closer look

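Among the genes screened, 3 are given here at which 1 of the 4 siblings stood far from the other siblings. The gap to its nearest neighbour was a larger part of the group's range than Dixon's 95% critical value for 4 samples allows. Sibling replicate 4 was low at ENSDARG00000090399 (0.422 CPM, with 1.07, 1.18 and 1.14 CPM in replicates 1, 3 and 5), a gap of 0.855 of the range that amounts to 6 against 15 or 16 counts. Sibling replicate 1 was low at CHUK, the neighbour of gsto1 (19.4 CPM, with 27.7 to 28.3 CPM in the others), a gap of 0.929. Sibling replicate 1 was high at mpped2a, a relative of MPPED1 (20.5 CPM, with 8.64 to 10.1 CPM in the others), a gap of 0.874. Genes with very few sibling counts could also pass this measure and are not among the 3. Such were PDE6H, with 0, 0.0738, 1.27 and 0.143 CPM in sibling replicates 1, 3, 4 and 5, and PDC (ENSDARG00000017634), with a count in replicate 5 only. Chance alone marks about 1 in 20 groups of 4 in this way, and 96 genes were screened.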

How the results depend on the processing

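All 16 members stayed called higher by edgeR or DESeq2 in every alternative fit run. The rule chose them by the same contrast in the same libraries, so nothing is read from that count. In the main fit 8.87% of all tested genes were called higher. Of the neighbours, 9 were called higher, 7 to 10 when a library was left out, 6 with the replicate number as a block, and 9 or 10 with other scalings, no filter or DESeq2. The number of genes called was 3073, and 1888 to 2835 when a library was left out (1888 without ddx41 mutant replicate 2). Called markers of other cell types numbered 53, and 34 to 54 when a library was left out (34 without ddx41 mutant replicate 2). With the replicate block these counts were 1023 and 32, the markers dividing into 25 higher and 7 lower, where the fit without it had 27 and 26. The neighbours CHUK, recql4 and si:dkey-1b17.2 did not pass with the block (edgeR adjusted p 0.0876, 0.426 and 0.523). The replicate numbers paired no libraries by the labels: only numbers 3 and 4 occur in both groups, and the deviations of same-numbered libraries correlated at -0.016 and -0.158. With the block, the contrast rests on replicates 3 and 4 alone, and the other libraries add nothing to it. The fewer calls with the block therefore cannot be read as an effect of pairing. Unscaled library totals moved the median log2 fold change of all genes from 0.04 to 0.12.

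The set depended on its bounds: it held 6 genes with a sibling bound of 1 CPM and 32 with 2 CPM, and 43 with a mutant bound of 3 CPM and 4 with 10 CPM. It held 18 to 25 when a library was left out (25 without sibling replicate 5), and leaving one out can only add genes, since it relaxes the rule. CPM by TMM gave 17 genes, by DESeq2 size factors 15, and after leaving the 2 most abundant rows out of the totals 15, of which 11 were among the 16. Sibling values rest on at most 19 counts, so depth limits how far members can be ordered in siblings. The alternatives for 1 gene list were not run. The unscaled fits and all fits for neighbours were added after seeing the data.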

Other observations

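The 5 genes of the mirror-image rule, on in siblings and near-silent in mutants, included ccl34b.1, a chemokine gene in the macrophage marker list, with 0.169, 0.602 and 0.278 CPM in mutants and 18.6, 14.6, 9.57 and 18 CPM in siblings. The others were olfcb1, pcare2, rnaset2l and si:ch211-103n10.5. Of their 8 tested adjacent rows 4 were called lower by edgeR, where 7.69% of all tested genes were, and both rows beside pcare2 were among them. The number of genes is too small to set this share against the neighbours of the 16 genes.

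Counts of the remaining marker lists, as tested genes with those higher and lower in mutants by edgeR, were as follows. Thrombocyte markers had 2 higher and 1 lower of 11, and endothelial markers 3 higher and none lower of 24. Germ line markers had 1 higher and 1 lower of 12, markers of yolk, liver and pancreas 2 higher and 1 lower of 22, and pigment cell markers 3 higher and 1 lower of 15. Cartilage, notochord and connective tissue markers had none called of 30, and erythroid markers 2 higher and 3 lower of 30. Over all tested genes 8.87% were higher and 7.69% lower.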
